A study of Drosophila melanogaster with 3 samples.

Results

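The Rab genes of Drosophila melanogaster were examined for binding of BtbVII, a BTB-domain protein, near their transcription start sites (TSSs) in whole embryos. They were taken as every protein-coding gene on the chromosome arms whose name is Rab followed by a digit or by X, which gave 33 of 13968 protein-coding genes. Of these, 5 lie on each of the arms 2L, 2R, 3L and 3R and 13 on X. Binding was measured by chromatin immunoprecipitation and sequencing (ChIP-seq) with an antibody against GFP, in a transgenic line that stably expresses BtbVII with GFP at its C terminus. The embryos were 0 to 24 h old, male and female embryos were pooled, and chromatin was sheared by sonication. The labels number 3 biological replicates, which form 1 group, and no control group was defined, so every result is a description of these lists with no test between groups. The embryos span all of embryogenesis and all cell types, so binding cannot be assigned to a stage or tissue.

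Rab proteins are small GTPases that mark membranes: in the GTP-bound state each sits on a given compartment and recruits tethers, motors and other effectors, and in the GDP-bound state it is drawn off the membrane. Guanine nucleotide exchange factors switch them on, GTPase-activating proteins switch them off, and lipid groups added by Rab geranylgeranyl transferase anchor them. Many Rabs serve routes that every cell needs, such as transport from the endoplasmic reticulum to the Golgi and through endosomes to lysosomes, whereas others work mainly in neurons or other specialised cells. From textbook knowledge 13 Rabs were set down as broadly used (Rab1, Rab2, Rab4, Rab5, Rab6, Rab7, Rab8, Rab10, Rab11, Rab14, Rab18, Rab21 and Rab35). Another 10 were set down as tissue-restricted, of which Rab3, Rab26, Rab27 and RabX4 are neuron-enriched and 6 are fly-lineage copies of low or narrow expression (Rab9D, Rab9Db, Rab9E, Rab9Fa, Rab9Fb and RabX2). The remaining 10, Rab9, Rab19, Rab23, Rab30, Rab32, Rab39, Rab40, RabX1, RabX5 and RabX6, were left unclassed.

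The pooled list of the 3 replicates holds 30000 regions on dm6, each with a summit and a signal value given by the authors' peak caller. Any of its summits is called a candidate here, with signal values from 52.7 to 3724. The 5219 regions of the optimal set, which passed an irreproducible discovery rate threshold, are called strong, and the lowest has a signal of 172.4. Each replicate has its own list of 30000 regions, with highest signals of 1495, 1554 and 765.3 in replicates 1, 2 and 3, so replicates were compared by rank (1 is the highest signal). The depth of the libraries is unknown, and the intervals given on shares are exact (Clopper-Pearson) 95% intervals that cover counting error over genes only.

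A candidate summit lay within 1000 bp of a TSS of 23 of the 33 Rab genes, or 69.7% (interval 51.3 to 84.4%), against 53.1% of all protein-coding genes. A strong summit lay there in 11, or 33.3% (18.0 to 51.8%), against 22.3% of all protein-coding genes. Among genes with a candidate, a strong summit was present in 47.8% of the Rabs (26.8 to 69.4%) and in 42.1% of all protein-coding genes. The share of all protein-coding genes lies inside the Rab interval in each of these 3 readings, and for candidates it is close to the lower bound. The 11 genes with a strong summit were Rab1, Rab2, Rab5, Rab8, Rab11, Rab14, Rab18, Rab26, Rab30, Rab32 and Rab40. Another 12 had candidates of lower signal only, and 10 had none in the window.

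The sequences at 7 strong Rab summits that lie in introns, clear of any untranslated exon, are shown to give the DNA behind the values that follow. Each is 101 bases of the Release 6 (dm6) genome on the strand of the Rab gene, and capitals mark the 11 bases centred on the summit. The first 5 lie within 1000 bp of a TSS of the Rab gene and the last pair deeper in the gene.
Rab5 (chr2L:2363746-2363846, minus strand): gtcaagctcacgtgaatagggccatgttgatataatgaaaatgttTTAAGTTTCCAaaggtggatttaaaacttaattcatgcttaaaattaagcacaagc
Rab5, weaker summit (chr2L:2363949-2364049, minus strand): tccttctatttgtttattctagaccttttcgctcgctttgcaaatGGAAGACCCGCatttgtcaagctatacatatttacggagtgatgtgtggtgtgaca
Rab14 (chr2L:14355676-14355776, plus strand): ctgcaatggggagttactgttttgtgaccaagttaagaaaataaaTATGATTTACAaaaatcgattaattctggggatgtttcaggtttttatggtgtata
Rab26 (chr3L:21321893-21321993, plus strand): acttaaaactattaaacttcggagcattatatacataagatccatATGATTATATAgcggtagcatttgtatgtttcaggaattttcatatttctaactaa
Rab30 (chr2L:7033429-7033529, minus strand): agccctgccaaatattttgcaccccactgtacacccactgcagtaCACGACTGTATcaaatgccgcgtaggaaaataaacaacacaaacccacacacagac
Rab11, gene body (chr3R:21113223-21113323, plus strand): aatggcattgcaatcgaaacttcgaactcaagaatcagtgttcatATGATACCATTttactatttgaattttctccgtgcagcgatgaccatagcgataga
Rab9, gene body (chr2L:19434390-19434490, plus strand): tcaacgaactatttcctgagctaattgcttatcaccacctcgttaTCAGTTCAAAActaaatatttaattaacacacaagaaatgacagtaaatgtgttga

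Among these 7 sequences, G and C made up between 26.7% (Rab26) and 47.5% (Rab30) of the bases. Of the 8 short motifs searched, given further on, only the initiator letters TCAGT occurred in them, in the Rab9 and Rab11 gene-body windows.

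**Figure D1:**
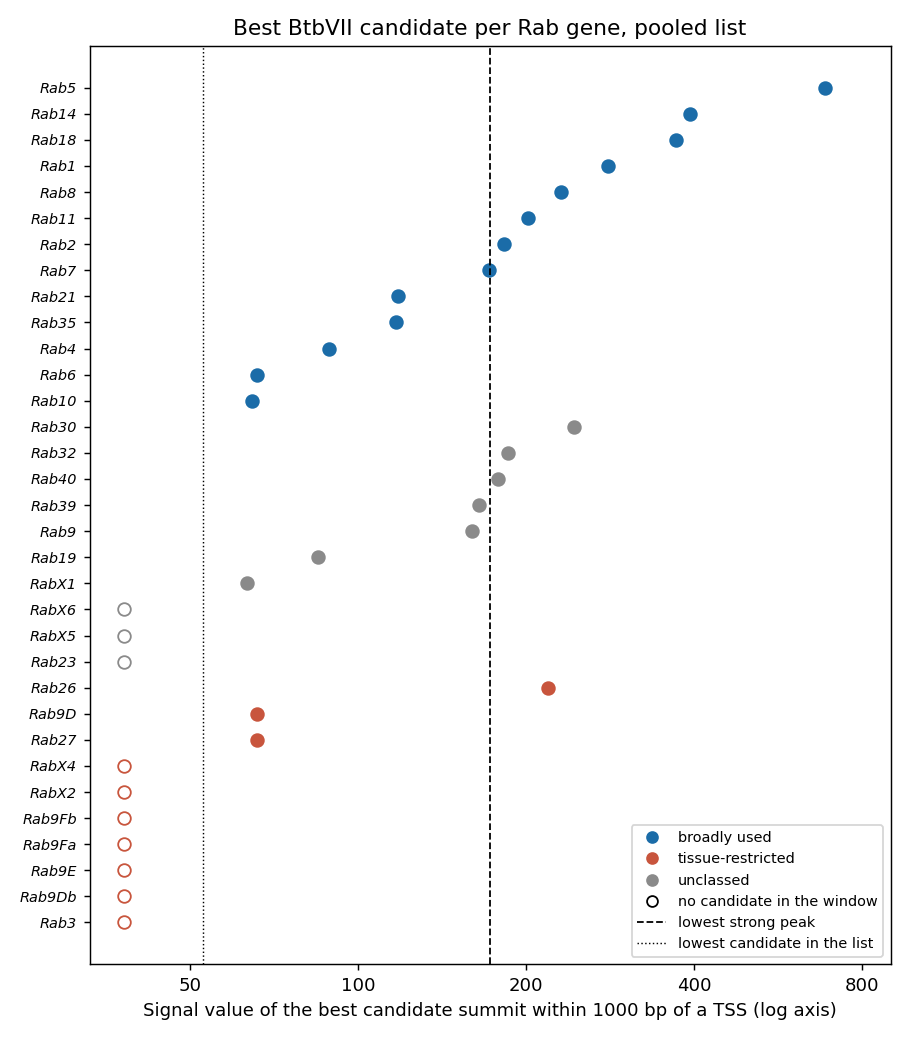
Signal value (log axis) of the highest candidate summit within 1000 bp of a TSS for each of the 33 Rab genes, coloured by class, with open circles for genes that have no candidate in the window (placed left of the dotted line at the list's minimum of 52.7, with no value). All 13 broadly used Rabs have a candidate, from 64.62 at Rab10 to 687.4 at Rab5, whereas 7 of the 10 tissue-restricted Rabs have none, and the dashed line marks the lowest strong peak at 172.4.

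Broadly used Rabs held most of the strong summits. All 13 had a candidate in the window (interval 75.3 to 100%), and 7 of them, or 53.8% (25.1 to 80.8%), had a strong one. Of the 10 tissue-restricted Rabs, 3 had a candidate (6.67 to 65.2%) and 1, or 10% (0.253 to 44.5%), had a strong summit. The unclassed Rabs stood between, with 7 of 10 having a candidate (34.8 to 93.3%) and 3 having a strong one (6.67 to 65.2%). The median signal of the highest candidate, over genes that had one, was 183 for broadly used, 165 for unclassed and 65.9 for tissue-restricted Rabs, against 150 over all protein-coding genes. The intervals for broadly used and tissue-restricted Rabs were apart for candidates and overlapped for strong summits. The classes were chosen with earlier results of these data known, so the intervals are no test of a difference. The tissue-restricted class was not uniform: of the 4 neuron-enriched Rabs, 2 had a candidate (6.76 to 93.2%) and 1 a strong summit (25%, 0.631 to 80.6%), and of the 6 fly-lineage copies 1 had a candidate (0.421 to 64.1%) and 0 a strong summit (0 to 45.9%). Without the copies, the intervals of the neuron-enriched and the broadly used Rabs overlapped for candidates too, and the 25% was close to the share of all protein-coding genes.

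**Figure D2:**
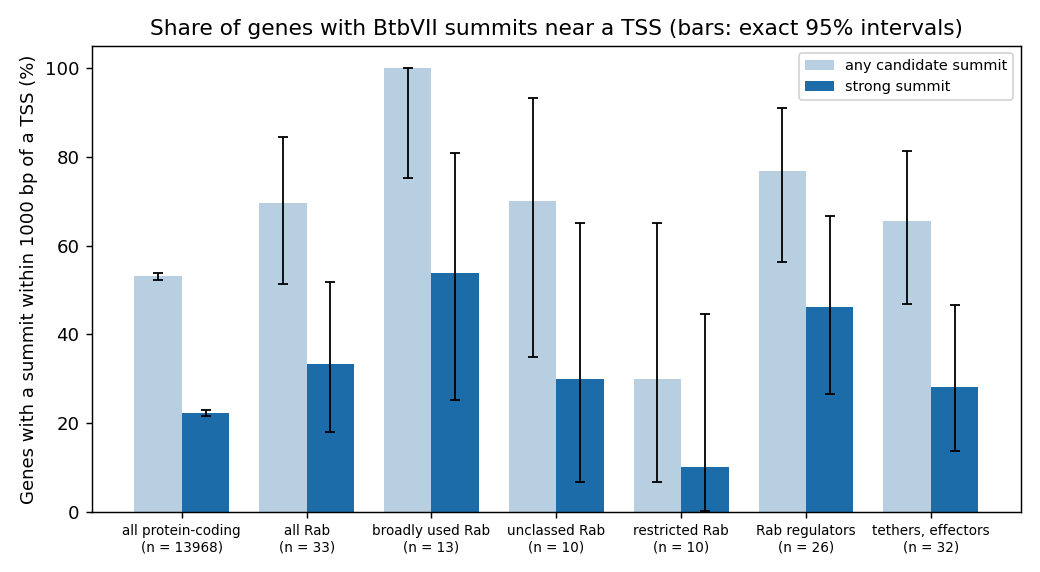
Share of genes (%) with any candidate summit or a strong summit within 1000 bp of a TSS, for all protein-coding genes, the Rab genes and their classes, and the Rab regulators and tethers, with exact 95% intervals as error bars. The strong share is 53.8% for broadly used and 10% for tissue-restricted Rabs, with intervals that overlap.

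Classes differed in ways that touch this count. Genes with several TSSs have a wider total window, and over all protein-coding genes a strong summit was near 15.6% of those with 1 TSS and 41.0% of those with 2 or more. Among Rabs with 1 TSS, 4 of 8 broadly used and 0 of 9 tissue-restricted genes had a strong summit (15.7 to 84.3% and 0 to 33.6%). A candidate was present in 8 of 8 and 2 of 9, against 44.7% of all protein-coding genes with 1 TSS. The 9 include all 6 fly-lineage copies, so this split does not separate TSS number from the copies. The 4 include Rab18, whose strong summit was nearest to the TSS of RpL35. Median gene length was 3032 bp for broadly used and 893 bp for tissue-restricted Rabs, against 2164 bp over all protein-coding genes. The part of gene length in the difference was not tested.

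The Golgi and secretory Rabs gave 3 strong summits close to their start sites. Rab1, required for transport from the endoplasmic reticulum to the Golgi, had a summit 97 bp downstream of its TSS in its 5′ UTR (chr3R:21268738-21269187) with a signal of 280.0. Its region ranked 3444, 1720 and 6553 in replicates 1, 2 and 3. Replicate 3 was the low one, beyond the 5219 highest regions. Rab8, which acts in polarised exocytosis, had a summit 82 bp downstream in its 5′ UTR (chr3L:19870771-19871220) with a signal of 231.3. The Rab8 region ranked 4177, 1883 and 3659, inside the 5219 highest in every replicate, and the TSS of Usp32, a deubiquitinase gene, lay in the same window.

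Rab2, a Golgi and late endosomal Rab, had a summit 13 bp upstream of its TSS (chr2R:6696501-6696950) with a signal of 182.6, near the lowest of the strong set. It ranked 8075, 4926 and 4063 in replicates 1, 2 and 3, and only replicate 1 placed it outside the 5219 highest. Rab6, which works at the Golgi, had 1 candidate of 65.81, placed 706 bp upstream in a coding exon of the neighbouring gene Phae1. Rab10, which directs secretion of basement membrane components in follicle cells, had 1 candidate of 64.62, 87 bp downstream. Neither the Rab6 nor the Rab10 candidate reached the 5219 highest in any replicate. Rab18, known in mammals from lipid droplets and the endoplasmic reticulum, had a strong summit of 371.3 (chrX:5672479-5672928), but it lay 892 bp upstream of Rab18 and 30 bp from the TSS of RpL35, a ribosomal protein gene. It ranked 1656, 994 and 2832. The highest candidate nearest to Rab18 itself was 125.8, 137 bp downstream.

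The early endosomal gene Rab5 carried the highest signal of the family and 3 of its 13 strong summits. Rab5 has 6 annotated TSSs, the most of any Rab, and 7 candidate summits lay near them. The highest (chr2L:2363643-2363881) lay in a Rab5 intron 292 bp upstream of the nearest Rab5 TSS, an internal start of the gene, with a pooled signal of 687.4 and rank 398. Its region ranked 564, 446 and 185 in replicates 1, 2 and 3, with signals of 231.5, 278.0 and 193.1. All 3 replicates placed it above every other strong Rab summit near a TSS, apart from the adjoining summit that shares its region in replicate 1.

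That adjoining Rab5 summit (chr2L:2363774-2364223), 495 bp upstream, had a pooled signal of 192.4 and ranks of 564, 2706 and 1645. Its replicate 1 region is the same one as that of the highest summit, so this rank is not separate evidence. The third strong Rab5 summit (chr2L:2365489-2365938) lay 441 bp upstream of the 5′-most Rab5 start but 120 bp from the TSS of Axud1, in the Axud1 5′ UTR. Its signal was 235.5 and its ranks were 2583, 7883 and 2019, with replicate 2 the low one.

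Among the other endosomal Rabs, Rab14 and Rab11 had strong summits, and the Rab7 signal was just below the lowest of the strong set. Rab14, which acts on endosomes and phagosomes, had a summit 581 bp downstream of its nearest TSS (chr2L:14355501-14355950), in an intron of Rab14 and of lncRNA:CR44851, with a signal of 393.4. It ranked 1671, 1199 and 1365, a narrow spread with all 3 replicates high. The TSS of l(2)34Fd lay in the same window. Rab11, the main Rab of recycling endosomes, had a summit of 201.9 in its 5′ UTR 283 bp downstream (chr3R:21111466-21111915), ranked 4202, 5703 and 2516. A much higher Rab11 summit of 527.0 lay in an intron 1865 bp downstream of the TSS (chr3R:21113138-21113295), outside the window, and ranked 651, 744 and 719. The replicates placed this gene-body summit at nearly the same rank.

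Rab7, the late endosomal and lysosomal Rab, had its candidate in the 5′ UTR 46 bp downstream (chr3R:23992829-23993278), with a signal of 171.7 against the strong minimum of 172.4. It ranked 5505, 4646 and 6339, so replicate 2 alone placed it among the 5219 highest. The TSS of Epp lay in the same window. Rab21, an endosomal Rab linked to integrin traffic, had a candidate of 117.8, 62 bp downstream, and was in the lists of replicates 1 and 2 at ranks 9935 and 6680. Rab35, which acts in endosomal recycling and on the actin cytoskeleton, had a highest candidate of 116.8, 662 bp downstream, at ranks 21232, 12573 and 10481. Rab4, which acts in rapid recycling, had a highest candidate of 88.79, but it lay 674 bp upstream and 4 bp from the TSS of UQCR-6.4, and only replicate 2 listed it. Its other candidate, of 64.84, lay 6 bp downstream of the Rab4 TSS in the 5′ UTR, at ranks 28795, 28663 and 9820. These 3 genes stayed below the strong set by a wide margin.

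The only tissue-restricted Rab with a strong summit was Rab26, known in mammals from synaptic vesicles and their autophagy. Its summit (chr3L:21321718-21322167) lay in a Rab26 intron, 438 bp upstream of an internal start, with a signal of 218.7. It ranked 3188, 3658 and 7687, within the 5219 highest in replicates 1 and 2 and outside in replicate 3. Rab26 is the longest Rab gene at 16254 bp, has 3 TSSs, and 4 candidates lay near them. One of these, of 64.80, was nearest to the TSS of the neighbouring gene Pc, and another, of 66.78, to lncRNA:CR45674.

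The other neuron-enriched Rabs had low or no candidates. Rab27, a regulator of secretory granules and vesicles, had 1 candidate of 65.92, 642 bp downstream, listed by replicates 1 and 3 at ranks 27900 and 13717. Rab3, the synaptic vesicle Rab, had no candidate in the window and 1 of 100.6 in an intron 1302 bp downstream, ranked 8814, 23426 and 19174. RabX4 had none in the window or gene body. In the replicates' own lists, Rab3 and RabX4 each had a summit in the window in replicates 1 and 3. The Rab3 value ranked 11967 of 30000 in the pooled list and the Rab27 value 22073, both well outside the strong set.

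Of the 6 fly-lineage copies, Rab9D alone had a candidate, with a signal of 65.93, 530 bp upstream, listed by replicate 2 only at rank 25674. Rab9Db, Rab9E, Rab9Fa, Rab9Fb and RabX2 had none, and none of the 6 had a strong summit. These genes lie on X, between chrX:10417429-10418219 (RabX2) and chrX:10951609-10952486 (Rab9Fb), and are short, from 791 to 897 bp. Their DNA is partly repeated: of the 50-base words in the 2001 bases around the TSS, 45.4% at Rab9D, 46.6% at Rab9Db, 43.8% at Rab9E and 49.4% at Rab9Fa occurred elsewhere in the genome. The share was 10% at RabX2 and 0.359% at Rab9Fb, and it was 0 at the other 27 Rabs. The sources used here do not say how reads from repeated sequence were placed, and the part of repeats in the missing candidates was not tested. Without the 6 copies, 22 of 27 Rabs had a candidate (81.5%, 61.9 to 93.7%) and 11 of 27 a strong summit (40.7%, 22.4 to 61.2%). Both intervals then leave out the shares of all protein-coding genes, 53.1% and 22.3%, the second by a narrow margin, unlike those over all 33 Rabs. With 1 candidate and 0 strong summits among the 6 copies, leaving them out had to raise both shares. This count was added after the data were seen, and genes with repeated sequence were not removed from the protein-coding background. The intervals without the copies are therefore no test against that background. On X as a whole 8 of 13 Rabs had a candidate (61.5%) and 2 a strong summit (15.4%), near the 55.6% and 20.3% of all protein-coding genes on X. Outside the copies 7 of 7 Rabs on X had a candidate, and 2 of them a strong one.

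Of the unclassed Rabs, 3 had a strong summit near a TSS. Rab30, a Golgi Rab, had a summit of 243.3 (chr2L:7033254-7033703) placed 873 bp upstream, in an intron of Caper and 758 bp from the Caper TSS. It ranked 3318, 3734 and 3213, and the replicates were close to one another. Rab40, which in mammals carries a SOCS box that links it to ubiquitin ligases, had a summit of 178.1 (chrX:12463294-12463743) that lay 407 bp upstream and 9 bp from the TSS of CG42258. It ranked 10228, 4672 and 6101, with replicate 2 alone inside the 5219 highest.

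Rab32, encoded by the eye colour gene lightoid and needed for pigment granules, had a summit of 185.6 (chr2R:9186144-9186593) that lay 27 bp upstream of its TSS. Its ranks of 2983, 11707 and 24005 were the most spread of any strong Rab summit, with replicate 1 alone high. Another 2 strong summits, of 250.6 and 237.2, lay in its introns more than 1000 bp from its own starts and were nearest to the TSS of lncRNA:CR44284. The stronger one ranked 2278, 10260 and 1248 in the replicates and the other 3619, 5322 and 1901. Replicate 2 placed all 3 Rab32 summits outside its 5219 highest.

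Rab9, which returns receptors from late endosomes to the Golgi, had a highest candidate of 160.1 in the window, 846 bp downstream, and a strong intronic summit of 414.3 beyond it, 1866 bp downstream (chr2L:19434215-19434664). The Rab9 gene-body summit ranked 1315, 1084 and 1313, high in all 3 replicates. Rab39, a lysosomal Rab, had a candidate of 164.8, 327 bp upstream and 55 bp from the TSS of Pdp, ranked 5262 and 3453 in replicates 1 and 2 and missing from the list of replicate 3. Rab19 had a candidate of 84.81 (586 bp downstream), and RabX1, an endosomal Rab, had one of 63.27 (308 bp downstream). Rab23, which acts in planar cell polarity, had none in the window and 1 of 74.77 in an intron, 1327 bp downstream. RabX5 and RabX6 had none in the pooled list. In the replicates' own lists Rab23 had a summit in the window in all 3, RabX5 in replicate 1 and RabX6 in replicate 3. When whole regions were counted, a strong region (chr3R:5686312-5686761) overlapped the Rab23 window. Its summit was nearest to the TSS of plx, for which it is also counted among the Rab regulators. A window of 2000 bp held a strong summit for both Rab23 and RabX5. By signal, Rab7 and Rab39 were thus the genes just below the lowest strong peak, at 171.7 and 164.8. Rab40 and Rab2 were the ones just above it, at 178.1 and 182.6.

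**Figure D3:**
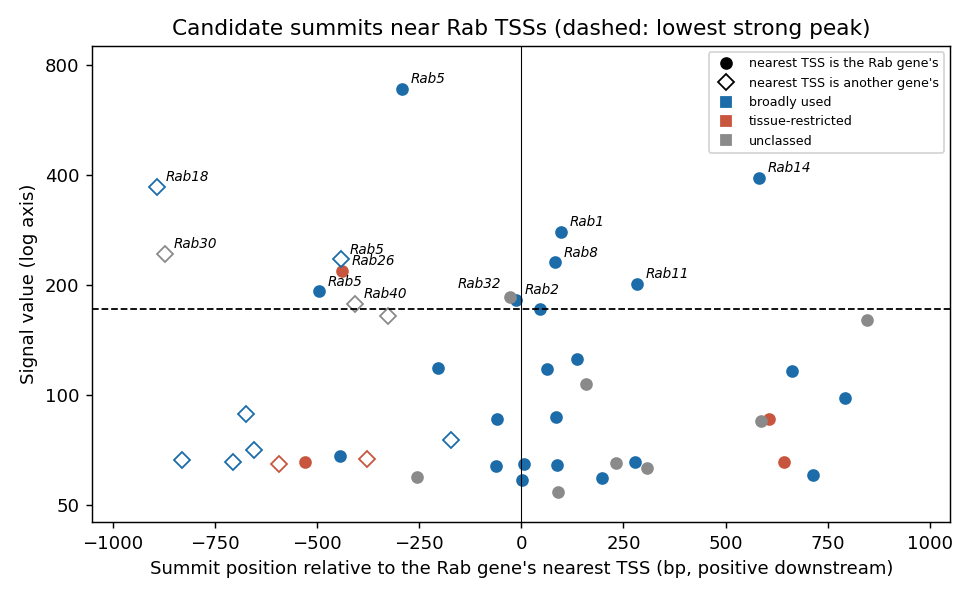
Candidate summits within 1000 bp of a Rab TSS, by distance from the nearest TSS of the Rab gene (bp, positive downstream) and signal value (log axis), coloured by class. Filled circles have the Rab TSS as the nearest start and open diamonds have another gene's, as do 4 of the 13 strong summits, which are labelled with the Rab gene.

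In all, 47 candidate summits lay near Rab starts and 13 of them were strong. Of the strong ones, 9 lay upstream and 4 downstream, and of the 2924 strong summits near any protein-coding TSS 70.3% lay upstream, a like share. Of the 13, 10 lay within 500 bp, and the median distance was 407 bp, against 214 bp for the 2924. Their median signal was 231.3, against 267.9 for those 2924. In 7 of the 13 the window also held the TSS of another protein-coding gene, and in 4 another gene's start was the nearest: Axud1 for a Rab5 summit, RpL35 for Rab18, Caper for Rab30 and CG42258 for Rab40. Neither count, nor the one within 500 bp, was made over the 2924. Counting only summits whose nearest TSS belongs to the gene left 8 Rabs with a strong summit, and 16.6% of all protein-coding genes. The strong summits of Rab18, Rab30 and Rab40 therefore cannot be told apart from binding at their neighbours.

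**Figure D4:**
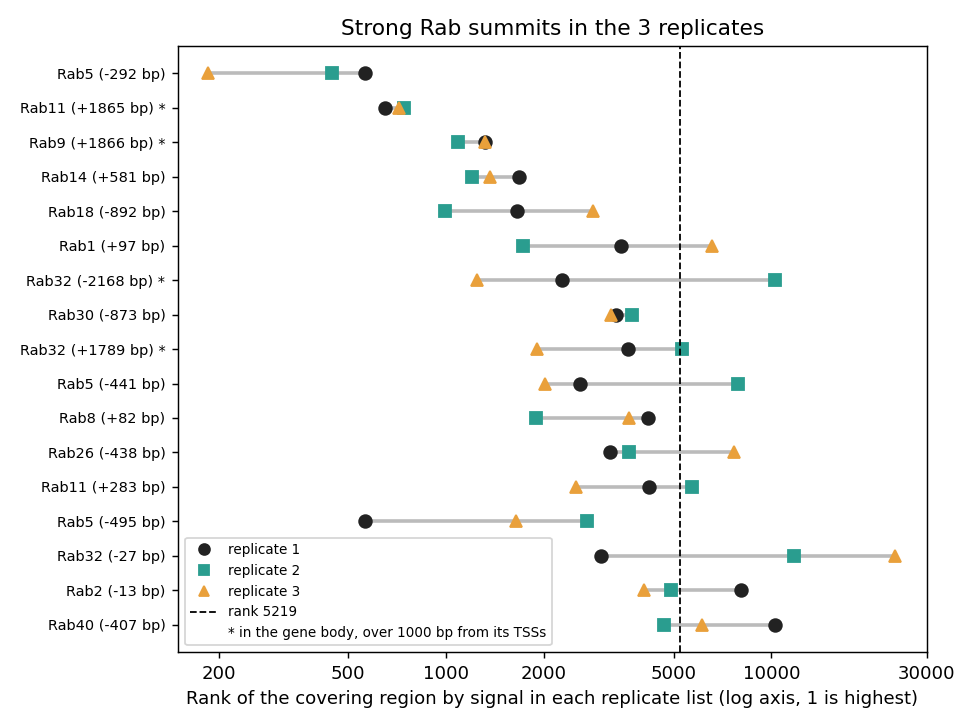
Rank by signal (log axis, 1 is the highest) of the region that covers each of the 17 strong Rab summits in the lists of replicates 1, 2 and 3, with an asterisk for the 4 in a gene body more than 1000 bp from the gene's starts. Rab5, Rab11, Rab9 and Rab14 sit at rank 1671 or better in every replicate at their highest summit, whereas Rab32 at -27 bp runs from 2983 to 24005, and the dashed line marks rank 5219.

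Each of the 13 strong summits near a TSS lay in a listed region of every replicate. Within the 5219 highest regions of a replicate, 6 were present in all 3 replicates, 5 in 2 and 2 in 1 only (Rab32 and Rab40). Over all strong summits near protein-coding starts, 60.0% were present in all 3. Replicates 1, 2 and 3 held 11, 10 and 9 of the 13. Taking strong peaks among the 5219 highest regions of both other replicates left 6 Rabs without replicate 1, 6 without replicate 2 and 7 without replicate 3, against 11 in the optimal set. These were 18.2%, 18.2% and 21.2% of the Rabs, beside 15.6%, 15.5% and 17.0% of all protein-coding genes. The strong peaks still came from the optimal set of all 3 replicates, so no replicate was fully left out. Of the 34 weaker Rab candidates, 12 lay in a listed region of every replicate. This count was not made over all weaker candidates near protein-coding starts. Some of the 12 share a replicate region with a strong summit, as the weaker Rab2 summit does in all 3 replicates.

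Each replicate's own list, read without the pooled one to which it contributed, gave the same ordering of broadly used and tissue-restricted Rabs. Within its 5219 highest regions, replicate 1 had a summit near 9 Rabs, replicate 2 near 12 and replicate 3 near 7 (9.33 ± 2.52, SD, n = 3). These are 27.3%, 36.4% and 21.2% of the Rabs, against 22.1%, 22.9% and 22.0% of all protein-coding genes, so the Rab share was higher in replicates 1 and 2 and slightly lower in replicate 3. Broadly used Rabs made up 6, 7 and 6 of these (6.33 ± 0.577) and tissue-restricted Rabs 1, 1 and 0 (0.667 ± 0.577), the latter being Rab26. Rab5, Rab8, Rab14, Rab18 and Rab30 were among them in all 3 replicates. With any listed region, 25, 23 and 21 Rabs had a summit (23 ± 2), or 75.8%, 69.7% and 63.6%, against 54.2%, 54.8% and 56.7% of all protein-coding genes. Broadly used Rabs then numbered 13, 13 and 11 of 13, and tissue-restricted Rabs 4, 2 and 4 of 10. The broadly used count exceeded the tissue-restricted one in each replicate on both readings.

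Short sequence motifs were searched on both strands in the 201 bases around each summit. GAGAGA, the GAGA repeat, occurred at 1 of the 13 strong Rab summits (a Rab5 summit), or 7.69%, against 14.2% of the 2924 strong summits near protein-coding starts. TATCGATA, the DNA replication-related element (DRE) bound by the factor DREF, occurred at 2 (Rab2 and Rab8), or 15.4% against 3.39%. At Rab8 it filled the outermost bases of the window, so any narrower window would leave it out. TATAAA occurred in 23.1% against 32.4%, the initiator letters TCAGT in 38.5% against 33.8%, and the E-box CAGCTG in 1 Rab window against 11.2% overall. GGTCACAC, the core of a motif found at housekeeping promoters, TGAGTG, a Zeste site, and a run of 8 A were found in none, against 2.12%, 9.75% and 13.3%. With 13 windows, each one moves a Rab share by 7.69 percentage points. G and C made up 42.1 ± 6.08% of the bases (SD, n = 13 windows), against 38.5 ± 8.65% over the 2924.

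Over promoters of 300 bases, from 250 before to 50 after the main TSS, TATCGATA was present in 10 of 33 Rab promoters, or 30.3%, against 8.94% of the 13968 protein-coding genes. This promoter count was chosen after the summit windows had been seen. The genes were Rab2, Rab6, Rab7, Rab8, Rab19, Rab27, Rab30, Rab35, Rab40 and RabX6, of which 5 are broadly used and Rab27 is tissue-restricted. GAGAGA was in 1 Rab promoter (Rab26), or 3.03% against 12.6%, and TATAAA in 24.2% against 45.3%. The other motifs were nearer the share of all promoters. TCAGT was in 51.5% against 51.8%, TGAGTG in 12.1% against 12.2% and CAGCTG in 15.2% against 17.9%. A run of 8 A was in 18.2% against 15.9%, and GGTCACAC in 12.1% against 7.52%. A strong summit lay near 4 of the 10 Rabs with TATCGATA in the promoter and near 7 of the 23 without it, and 29.3% of all 1249 protein-coding genes with it had one. The element was therefore not confined to Rabs with a strong summit.

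The sites are shown because their placement was alike: in each of the 9 promoters printed here a site began at most 70 bases upstream of the start. Each line gives 28 bases of Release 6 on the gene's strand with the element in capitals.
Rab6 (chr2L:12109151-12109178, minus strand): aatatgcgttTATCGATAgcgtggcaga
Rab7 (chr3R:23992981-23993008, plus strand): acgactgcacTATCGATAaccagtactg
Rab8 (chr3L:19871079-19871106, minus strand): tacgataagcTATCGATAgacgacggcg
Rab19 (chr3L:8296988-8297015, plus strand): taaaatggaaTATCGATAtatgagcttc
Rab27 (chrX:1477027-1477054, minus strand): tcgcgatactTATCGATAgctctgcgcg
Rab30 (chr2L:7032636-7032663, minus strand): aacgtcgatcTATCGATAccgagaaaaa
Rab35, upstream site (chrX:20160025-20160052, minus strand): tctctaaataTATCGATAcatattgata
Rab35, site near the start (chrX:20159867-20159894, minus strand): tatcctaaacTATCGATAgcataaacat
Rab40 (chrX:12463112-12463139, minus strand): atcgatggctTATCGATAtgcgcaaact
RabX6 (chr3L:690458-690485, plus strand): aattatcggtTATCGATAgcgttcaaat

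Relative to the TSS, the element began at -52 in Rab6, -17 in Rab7, -18 in Rab8, -20 in Rab19, -70 in Rab27, -47 in Rab30, -17 in Rab40 and -49 in RabX6. Rab35 held it at -170 and again at -12. The strong Rab8 summit lay 82 bp downstream of the start, with the element at the outer edge of the 201 bases around it. The strong Rab30 summit lay 873 bp upstream and far from its site. RabX6 had the element and no candidate summit.

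The proteins that control Rabs were read from lists of regulators and of tethers and effectors. Of 26 regulators (exchange factors, GTPase-activating proteins, escort and prenylation proteins), 20 had a candidate, or 76.9% (56.4 to 91.0%), and 12 a strong summit, or 46.2% (26.6 to 66.6%). Of all protein-coding genes, 53.1% had a candidate and 22.3% a strong summit. The highest 3 regulators were sky, Mon1 and spri. The GTPase-activating protein gene sky, which acts on Rab35 at synapses, had a summit of 898.6, 276 bp upstream (chr2L:20917625-20917867), ranked 198, 1714 and 190 in replicates 1, 2 and 3. Mon1, a subunit of the exchange factor for Rab7, had one of 712.5, 101 bp upstream (chr2L:4850425-4850676), ranked 335, 445 and 367. The gene spri, related to mammalian exchange factors for Rab5, had one of 330.2, 476 bp upstream (chrX:10547005-10547454), ranked 1598, 1938 and 1571. The first pair exceeded the highest Rab value, that of Rab5.

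Of 32 tethers and effectors, 21 had a candidate, or 65.6% (46.8 to 81.4%), and 9 a strong summit, or 28.1% (13.7 to 46.7%). Rbsn-5, a Rab5 effector in endosome fusion, had a summit of 541.6, 94 bp upstream (chr2L:8159648-8159813), ranked 755, 543 and 975. The synaptotagmin-like gene btsz had one of 486.8, 38 bp upstream (chr3R:14853849-14853961), ranked 926, 971 and 779. A Rab11 effector, nuf, had one of 456.6, 33 bp downstream (chr3L:14190681-14191130), ranked 1033, 872 and 858. All 3 replicates placed these 3 summits within their 1033 highest regions. Over all protein-coding genes the candidate share was 53.1% and the strong share 22.3%. Both lie outside the intervals of the regulators and inside those of the tethers and effectors. Both lists were chosen with earlier results of these data known, so the intervals are no test of a difference. The regulators were long genes, with a median length of 5027 bp against 2164 bp over all protein-coding genes, and the part of length in their share was not tested.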

How the data were processed

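The deposited region lists on dm6 were used: 1 for each of 3 replicates, 1 pooled, and the optimal set. Per the deposited README files, each was derived from replicate alignments and 1 further alignment, taken to be the control. The sources used here name no aligner, peak caller or read filter. Regions were ranked by the signal value that the authors deposited, and only within a list. The −log10 q-value column, also deposited by the authors, was not used for ranking. The deposited dm3 lists were not used here. Depth is unknown.

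Summits were placed against Ensembl release 115 gene models (BDGP6.54), on the Release 6 genome, with every annotated TSS and a window of 1000 bp. Exact 95% intervals came from scipy 1.17.1, with pandas 2.3.3 under Python 3.11.15. The assignment was tested on simulated data. Coordinates count from 1.

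The Rab genes, their classes and the other lists were chosen with earlier results of these data known. All 33 Rabs are named, and of each other list the 3 genes of highest strong signal. RabGGTb and strat were matched under their current symbols, and Usp6nl and Rabaptin matched no protein-coding gene. Rab3-GEF, Rab3-GAP and Rab3GAP1 are regulators, not Rabs, and were left out of the family. Alternatives were the window, the TSS used, stricter strong peaks, the gene body, and the class lists. The ranks of each replicate were also left out in turn, with strong peaks still taken from the optimal set of all 3. The count without genes holding repeated words was added after the data were seen.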

Additional observations from a re-analysis of the deposited data

How the results depend on the processing

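Over 78 alternatives, 58 left the value within 1.5 times. With only the 2609 strong peaks of higher signal, counts with a strong summit fell to 4 Rab genes (12.1%), 4 broadly used and 0 tissue-restricted Rabs, 6 regulators, 5 tethers and effectors, and 13.1% of all protein-coding genes, so the Rab share was then below that of all genes. With the 3076 strong peaks top-ranked in all 3 replicates, they were 5 Rab genes (15.2%), 4 broadly used and 0 tissue-restricted, 4 tethers and effectors, and 14.1%. Requiring top rank in the other replicates when each was left out gave 6 to 7 Rabs, 0 to 1 tissue-restricted Rabs, 5 broadly used in each case, 4 to 7 tethers and effectors, and 15.5 to 17.0% of all genes. These stricter sets are parts of the optimal set of all 3 replicates and hold fewer peaks by construction. The tissue-restricted count was 0 with the canonical TSS only and 4 of 20 with unclassed Rabs added. Without genes holding repeated words, it was 1 of 4 (25%) in place of 1 of 10 (10%). Windows of 500 and 2000 bp gave 8 and 14 Rabs, or 24.2% and 42.4%, beside 18.9% and 27.8% of all protein-coding genes. The broadly used share exceeded the tissue-restricted share in 11 of 11 alternatives that split the classes. These recount the same peaks and genes, so they are not separate support. Each of them kept the 6 fly-lineage copies, which had no strong summit, in the tissue-restricted class.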
